A study of Mus musculus with 24 samples.

Results

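Monocytic and granulocytic myeloid-derived suppressor cells (M-MDSC and PMN-MDSC) of lymphodepleted mice labelled interleukin-6 knockout (IL-6 KO) were compared across all genes. The comparison took the 3 M-MDSC and 3 PMN-MDSC libraries of that genotype label and treatment, 6 of the 24 libraries of the series. Genes were kept when they had 10 or more normalized read counts in at least 3 of these 6 libraries, which left 11277 of the 23479 genes in the table. The libraries were taken by their labels and the genes by their levels. A gene could pass the filter through the libraries of a single cell type, so the filter is not blind to differences between the cell types.

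The mice were of strain B6.129S2-Il6tm1Kopf/J, which carries a targeted allele of Il6 in every cell of the body. They bore tumours of B16, a transplantable mouse melanoma line, of more than 25 mm2 when they received cyclophosphamide and fludarabine, chemotherapy drugs that kill lymphocytes and other dividing blood cells. The spleen was removed 7 days later. Flow sorting gave both cell types at over 99% purity, and each library began with 100 ng of total RNA. Untreated IL-6 KO mice and lymphodepleted wild-type (WT) C57BL/6 mice, both with B16 tumours and the same sort, served for comparison with 3 libraries per cell type each. Untreated WT mice, also with 3 libraries per cell type, were used for genes called in all conditions and for the spread estimated over all 24 libraries. The design text gives no number of mice for the lymphodepleted IL-6 KO group, and p-values rest on the spread among libraries labelled as separate samples, which may be technical. The markers used for sorting are not named in the labels.

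M-MDSCs resemble immature monocytes and PMN-MDSCs resemble immature neutrophils. Both accumulate in the spleen of tumour-bearing mice, where blood cell formation outside the marrow takes place, and both restrain T cells, through arginine depletion, reactive oxygen species, prostaglandins and adenosine among other means. Neutrophil precursors make their granules in order: primary granule proteins at the promyelocyte stage, secondary granule proteins at the myelocyte stage and tertiary granule proteins later, while division stops in between. Interleukin-6 signals through IL-6 receptor alpha and gp130 (Il6st) to JAK kinases and STAT3, a route that overlaps with that of granulocyte colony-stimulating factor.

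The 6 libraries held 7418606 to 10017014 reads. The precursor ribosomal RNA Rn45s took 8.50 to 19.8% of reads in the M-MDSC libraries and 4.65 to 5.85% in the PMN-MDSC libraries, and the nuclear transcript Malat1 took 1.55 to 2.12% and 3.23 to 4.41%. PMN-MDSC replicate 2 stood apart from the others of its cell type, and the M-MDSC libraries were spread on the same lists. Over the 35 cell cycle genes PMN-MDSC replicate 2 lay 1.03 log2 units above its group mean at the median, and over the 19 secondary and tertiary granule genes 0.90 above it. M-MDSC replicate 2 lay 0.49 and 0.60 above its group mean on the same lists, and replicate 1 lay 0.62 and 0.73 below it. Pearson correlations of log2 levels across genes were 0.954 to 0.965 among M-MDSC libraries and 0.909 to 0.942 among PMN-MDSC libraries, the lowest being between PMN-MDSC replicates 1 and 2. Counts without both libraries numbered 2 are given where they moved by more than 1.5 times.

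**Figure D1:**
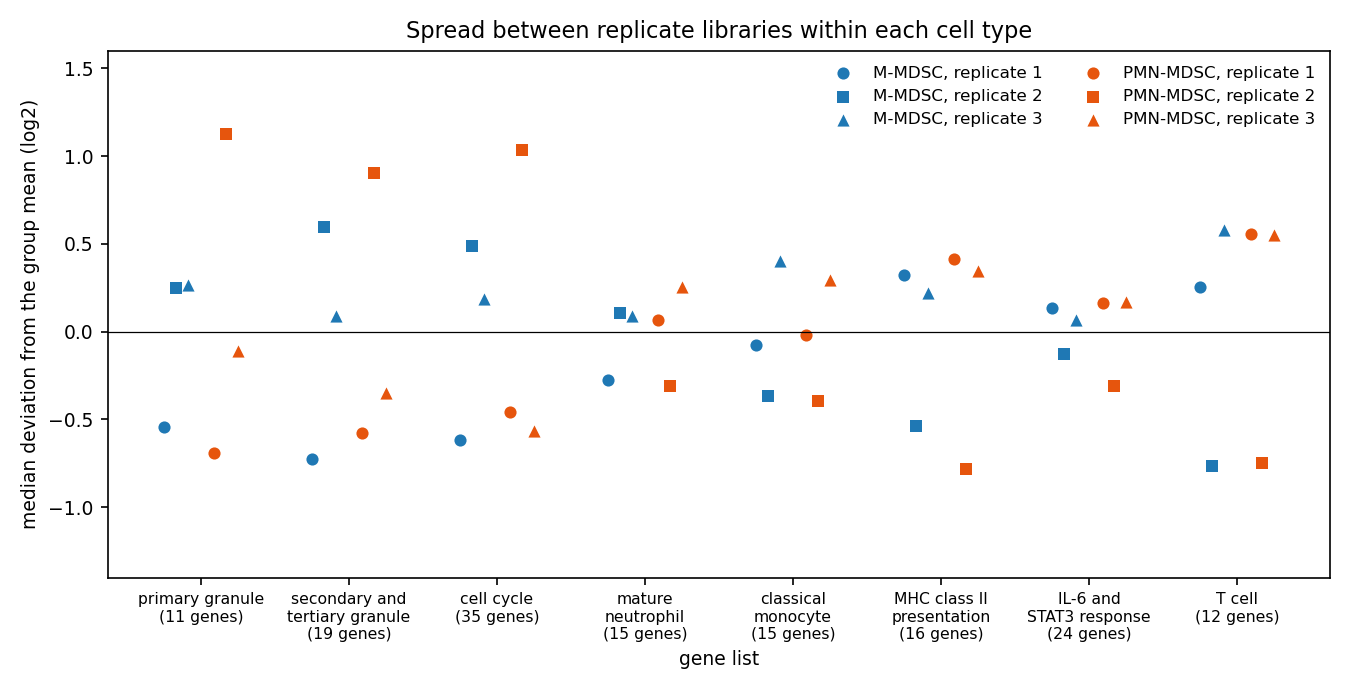
Median deviation of each library from the mean of its group of 3 (log2 units, y axis) over the genes of 8 lists (x axis), M-MDSC in blue and PMN-MDSC in orange, with the marker shape giving the replicate. PMN-MDSC replicate 2 lies 1.03 above its group on the cell cycle list and 0.90 above it on the secondary and tertiary granule list, and 0.78 below it on the MHC class II list.

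The targeted gene was looked at first. Il6 (chromosome 5, 30013114 to 30019975, GRCm38) had normalized counts of 38.9, 16.2 and 45.3 in the M-MDSC libraries and 131, 64.5 and 203 in the PMN-MDSC libraries, in the order of the replicate numbers, as in all lists of values below. In lymphodepleted mice labelled WT it had 0, 3.87 and 1.72 in M-MDSCs and 0 in each PMN-MDSC library, so the libraries labelled knockout held more Il6 reads than those labelled WT. Reads summed over a gene do not show whether its transcript is intact or disrupted, and directions between genotypes below are directions between labels. Within the IL-6 KO label every PMN-MDSC library was above every M-MDSC library, a log2 difference (M-MDSC minus PMN-MDSC, ± standard error) of −1.93 ± 0.76 with a limma adjusted p of 0.0353. That call was lost without M-MDSC replicate 1 or 2 or PMN-MDSC replicate 1 or 3, without both libraries numbered 2 (adjusted p 0.0917), with total-read scaling (0.114), with a minimum of 50 counts or no minimum, and with a pseudocount of 0.5, so it rests on the choice of libraries and settings.

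In the main fit more genes were called different between the cell types than were not called. A gene was called when its Benjamini-Hochberg adjusted p from limma, over all genes tested, was under 0.05. Of 11277 genes, 3181 (28.2%) were called higher in M-MDSCs and 3013 (26.7%) higher in PMN-MDSCs, 54.9% in all. That majority was lost in most fits without 1 library, for example without M-MDSC replicate 3 (2622 and 2718 genes). A gene that was not called is not shown to be equal. The 3 libraries of one cell type lay wholly above the 3 of the other for 3726 genes (33%) in favour of M-MDSCs and 3367 (29.9%) in favour of PMN-MDSCs. Differences of 1 log2 unit or more were called for 2594 and 2007 genes, of 3 or more for 476 and 400, and of 5 or more for 34 and 87. Counts of called genes in the lists below are to be read against the 28.2% and 26.7% of all genes, and shares near these are no result about a list. In bulk RNA, fewer cells of a type in a sample and less RNA per cell cannot be told apart.

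The balance between the directions moved with the scaling. The deposited size factors put the median difference of all genes at 0.17 log2 units, and scaling to the total of reads without Rn45s put it at 0.74. With that scaling, added after the data were seen, 5212 genes were called higher in M-MDSCs and 1736 higher in PMN-MDSCs, so M-MDSCs took 75.0% of the calls against 51.4% with the deposited factors. Differences below are on the deposited scale and are to be read against its median of 0.17, and for functional lists whose median changed sign with the total-read scaling the other median is given.

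**Figure D2:**
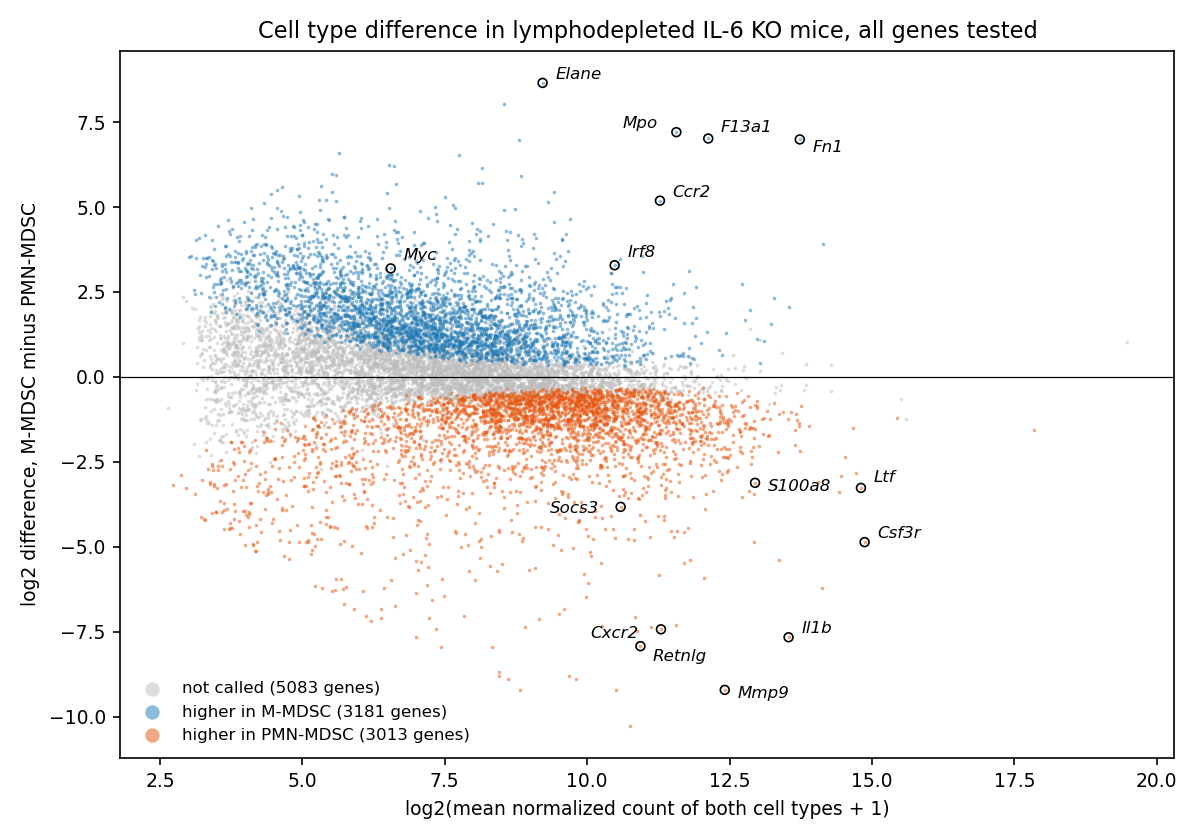
Log2 difference between M-MDSCs and PMN-MDSCs (y axis) against log2 of the mean normalized count of both cell types + 1 (x axis) for 11277 genes, with called genes in blue (3181, higher in M-MDSC) and orange (3013, higher in PMN-MDSC). Differences past 5 log2 units were called for 34 genes on the M-MDSC side and 87 on the PMN-MDSC side.

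Primary granule genes were among the largest differences on the M-MDSC side. Elane, neutrophil elastase (chromosome 10, 79886312 to 79888216), had 685, 1175 and 1696 normalized counts in M-MDSCs and 1.02, 9.34 and 0 in PMN-MDSCs, 403-fold higher in M-MDSCs on the log2(count + 1) scale (8.66 ± 1.09, adjusted p 9.88e-07). Mpo, myeloperoxidase (chromosome 11, 87793784 to 87804412), had 3471, 5009 and 9604 in M-MDSCs and 29.6, 47.5 and 34.1 in PMN-MDSCs (7.21 ± 0.92). Prtn3, proteinase 3, had 510.1, 986 and 1134 against 0, 19.5 and 13.4 (6.96 ± 1.17), and Ctsg, cathepsin G, 277, 393 and 608 against 5.10, 1.70 and 4.13 (6.53 ± 1.06). For each of these proteases and peroxidases of the promyelocyte every M-MDSC library lay above every PMN-MDSC library, and no PMN-MDSC library came close.

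The other large differences on the M-MDSC side were in genes of several functions. Fn1, fibronectin (chromosome 1, 71585473 to 71653280), had 22620, 23412 and 35024 against 353, 119 and 212 (6.99 ± 0.38), and F13a1, the A subunit of coagulation factor XIII (chromosome 13, 36867178 to 37050244), had 7366, 7854 and 11398 against 65.2, 54.3 and 81.5 (7.02 ± 0.26). Vcan, the matrix proteoglycan versican (5.45 ± 0.59), Msr1, scavenger receptor A (6.14 ± 0.85), Itga1, a collagen-binding integrin subunit (5.92 ± 0.72), and Met, the receptor for hepatocyte growth factor (5.71 ± 0.69), were each called. Gria3, a subunit of the AMPA glutamate receptor, had 632, 859 and 725 against 1.02, 10.2 and 0 (8.02 ± 0.75). The 15 largest were completed by Aldh1b1, a mitochondrial aldehyde dehydrogenase (6.25 ± 0.70), Papss2, which makes the sulfate donor PAPS (6.20 ± 1.02), the LIM protein gene Crip1 (5.72 ± 0.74) and Sdf2l1, a chaperone of the endoplasmic reticulum (5.68 ± 0.70).

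Genes known from neutrophils were among the largest differences on the PMN-MDSC side. Mmp9, the gelatinase of tertiary granules (chromosome 2, 164940326 to 164955850), had 20.9, 13.8 and 18.1 in M-MDSCs and 11542, 11129 and 10076 in PMN-MDSCs, 594-fold higher in PMN-MDSCs (−9.21 ± 0.47, adjusted p 1.63e-12). Il1b, interleukin-1 beta (chromosome 2, 129364569 to 129371164), had 164, 53.5 and 133 against 26484, 11522 and 32949 (−7.66 ± 0.68), with PMN-MDSC replicate 2 the lowest of its group. Cxcr2, the receptor for neutrophil-attracting CXC chemokines (chromosome 1, 74153994 to 74161246), had 20.9, 38.9 and 23.5 against 4858, 3310.2 and 6837 (−7.43 ± 0.49), and Retnlg, a resistin-like secreted protein, 19.9, 16.2 and 10.3 against 4374, 3411 and 3916 (−7.93 ± 0.38). The groups were far apart for all 4 genes.

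Several genes of this side had almost no reads in M-MDSCs. Arg2, the mitochondrial arginase, had 3 reads in the 3 M-MDSC libraries together and 2132 in the PMN-MDSC libraries, a ratio after scaling of 896 (95% interval 306 to 4349). The ratio was 1746 (95% interval 483 to 14428) for Asprv1, an aspartic protease gene with 2 M-MDSC reads, and 658 (95% interval 182 to 5437) for Stfa2l1, a stefin A cysteine protease inhibitor with 2. It was 997 (95% interval 341 to 4838) for Amer2, a regulator of Wnt signalling with 3 reads, and 966 (95% interval 173 to 38201) for Ccdc146, a coiled-coil protein gene with 1. These exact binomial intervals cover counting error only. The other largest differences were in Dhrs9, a retinol dehydrogenase of the short-chain family (−8.81 ± 0.48), Steap4, a metalloreductase (−7.96 ± 0.89), Nlrp12, a NOD-like receptor (−7.48 ± 0.53), Ankrd33b (−9.21 ± 0.70) and Sycp2, a component of the synaptonemal complex (−8.90 ± 0.76). H2-Q10, a class Ib histocompatibility gene, had 1.90, 4.05 and 0 against 4182, 1372 and 4783 (−10.27 ± 0.82), but it has near-identical H2-Q neighbours, so its own share of these reads is uncertain.

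The cell type labels were checked against marker genes. Of 15 markers of classical monocytes, all of them tested, 13 were higher in M-MDSCs and 0 higher in PMN-MDSCs (1 without M-MDSC replicate 3), with a median difference of 3.40. Ccr2, the chemokine receptor that takes monocytes out of the marrow, had 4377, 3366 and 6768 against 145, 104 and 134 (5.19 ± 0.46). Ly86 (MD-1), a partner of the toll-like receptor homolog RP105, had 434, 305 and 459.8 against 14.3, 14.4 and 28.9 (4.36 ± 0.37). Chi3l3 (−0.13 ± 0.85) and Emb (−0.21 ± 0.21) were not called. Of 18 markers of mature neutrophils 15 could be tested, and all 15 were higher in PMN-MDSCs, with a median of −5.40. Ly6g, the antigen commonly used to define this cell type, was not analysed here.

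Both cell types carried some transcripts of the other. Csf3r, the receptor for granulocyte colony-stimulating factor, had 2183, 1608 and 1909 in M-MDSCs against 68663, 33432 and 72126 in PMN-MDSCs (−4.86 ± 0.37). S100a8, a subunit of calprotectin, had 759.9, 2588 and 1909.8 against 9409.8, 18862 and 13884 (−3.12 ± 0.57), and S100a9, the other subunit, 1395, 5472 and 5011 against 19729, 40737 and 29989 (−3.10 ± 0.61). For both subunits replicate 1 was the lowest library of each cell type. Csf1r, the receptor for macrophage colony-stimulating factor, had 6823, 3965 and 5412 against 3131, 1497 and 3877 (1.003 ± 0.35, adjusted p 0.0196), groups that lay close to each other. Ly6c2, which encodes the Ly6C antigen of inflammatory monocytes, had 487, 592 and 1403 against 173, 399.9 and 268 (1.48 ± 0.57, adjusted p 0.0339). The Csf1r call was lost without M-MDSC replicate 1 (limma adjusted p 0.0876), PMN-MDSC replicate 2 (0.155) or both libraries numbered 2 (0.0839). The Ly6c2 call was lost without M-MDSC replicate 3 (limma adjusted p 0.182), PMN-MDSC replicate 1 (0.137) or PMN-MDSC replicate 3 (0.0680).

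**Figure D3:**
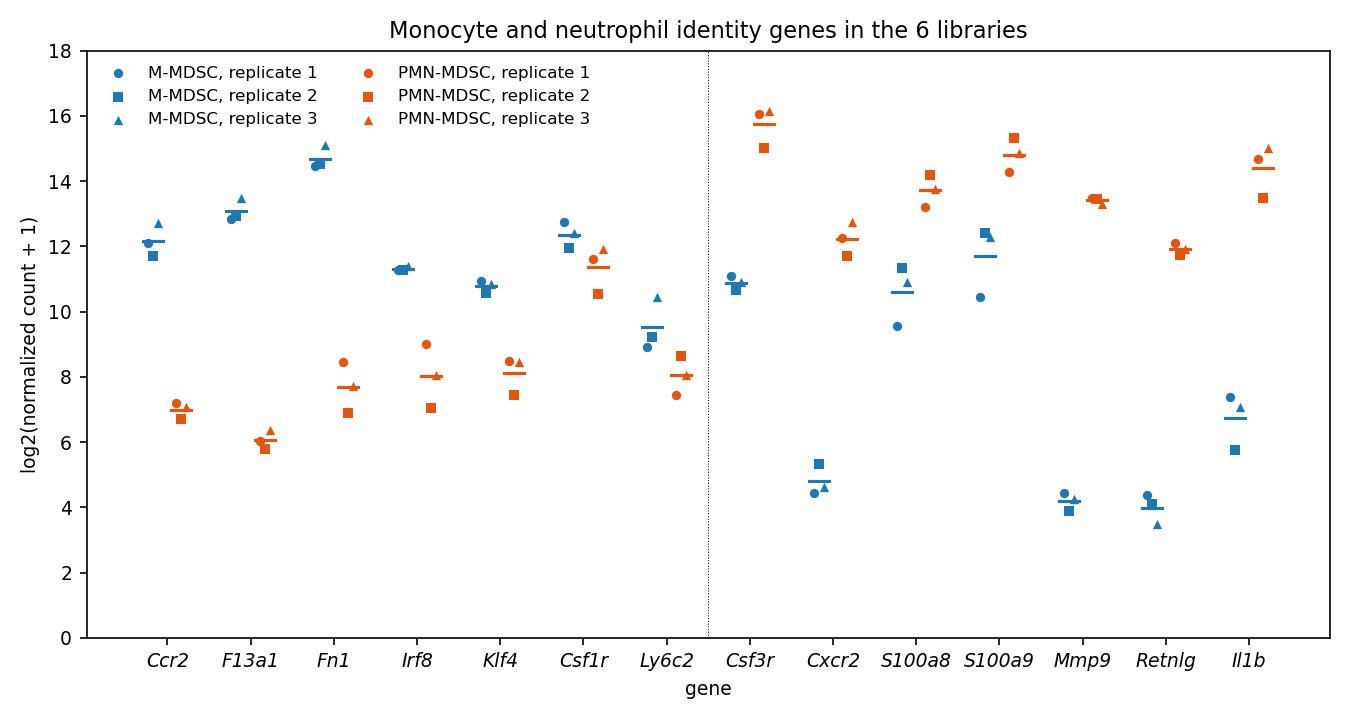
Log2(normalized count + 1) (y axis) of 7 monocyte genes, left of the dotted line, and 7 neutrophil genes, right of it (x axis), in each of the 3 M-MDSC (blue) and 3 PMN-MDSC (orange) libraries, with a bar at each group mean and marker shapes for replicates. Csf1r and Ly6c2 differ by 1.003 and 1.48 log2 units between the group means, the least among these genes, and Mmp9 by 9.21, the most.

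Granule genes split by the stage at which they are made. Of 11 primary granule and promyelocyte genes tested, 6 were higher in M-MDSCs (background 28.2%) and 0 higher in PMN-MDSCs. Besides the 4 above these were Ms4a3 (4.26 ± 1.31) and Nkg7 (2.04 ± 0.51). The other 5 were not called, among them Cebpe, a transcription factor needed for secondary granules, with 68.4, 147 and 86.9 against 98.9, 543 and 169 (−1.12 ± 0.88), and Gfi1, a repressor of the monocyte fate, with 108, 230.1 and 126 against 77.5, 244 and 134 (0.10 ± 0.50). Of 19 secondary and tertiary granule genes, 15 were higher in PMN-MDSCs (background 26.7%) and 0 higher in M-MDSCs, with a median of −2.88. Mmp8, neutrophil collagenase, had 236, 179.9 and 546 against 4711, 5004 and 4894 (−4.09 ± 0.32), Mmp25, a membrane-anchored metalloproteinase, 14.2, 76.2 and 31.4 against 1937, 2457 and 1366 (−5.79 ± 0.47), and the adhesion family gene Ceacam10 0, 2.43 and 2.41 against 149.8, 213 and 143 (−6.20 ± 0.73).

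Secondary granule genes with high counts also showed the spread between replicates. The 3 given here were picked for display after their values were seen. Ltf, lactoferrin, had 1762, 10290 and 4687 in M-MDSCs and 25259, 99939 and 30140 in PMN-MDSCs (−3.27 ± 0.84), Ngp, neutrophilic granule protein, 2263, 10836 and 6606 and 21215, 91758 and 29379 (−2.82 ± 0.86), and Camp, the cathelicidin precursor, 891, 4340.4 and 1707 and 4937, 22385 and 6217 (−2.23 ± 0.81). In both cell types replicate 2 was the highest library for all 3 genes and replicate 1 the lowest. M-MDSC libraries thus held both primary and secondary granule transcripts, at levels that varied between libraries by several fold. Whether single cells or a mixture of cells carried them was not tested.

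Upstream sequences of these granule genes are printed for members that were called in the same direction: 4 primary granule genes higher in M-MDSCs and 3 secondary granule genes higher in PMN-MDSCs. These members were picked for display, with stretches of differing length. Each holds the core marked in it, so they do not stand for their lists, whose shares follow. The sequences come from the RefSeq promoter table for GRCm38.p6, end at the base before the annotated start, and are written 5′ to 3′ on the gene's own strand. Capitals mark the core AGGAAG of ETS family factors such as PU.1, on either strand, in the primary granule genes, and the core TTGCNNAA of C/EBP factors, also on either strand, in the secondary granule genes. A match on the opposite strand reads as the reverse complement in the line shown, as in Ltf and the second match of Ngp. Mpo holds 3 ETS cores, Elane 1, Prtn3 2 and Ctsg 3 in the stretches shown.
Mpo (chr11:87793534-87793783, plus strand): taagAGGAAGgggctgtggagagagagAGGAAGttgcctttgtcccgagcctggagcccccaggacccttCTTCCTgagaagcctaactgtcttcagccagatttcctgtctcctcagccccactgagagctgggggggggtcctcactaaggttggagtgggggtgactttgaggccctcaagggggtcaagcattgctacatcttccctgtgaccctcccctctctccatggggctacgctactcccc
Elane (chr10:79886192-79886311, plus strand): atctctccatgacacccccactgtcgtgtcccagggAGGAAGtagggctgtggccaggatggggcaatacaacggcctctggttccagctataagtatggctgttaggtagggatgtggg
Prtn3 (chr10:79879487-79879666, plus strand): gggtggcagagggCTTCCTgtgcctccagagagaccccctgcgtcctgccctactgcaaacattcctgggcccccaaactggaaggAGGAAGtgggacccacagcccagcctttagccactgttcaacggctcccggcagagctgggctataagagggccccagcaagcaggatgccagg
Ctsg (chr14:56102575-56102794, minus strand): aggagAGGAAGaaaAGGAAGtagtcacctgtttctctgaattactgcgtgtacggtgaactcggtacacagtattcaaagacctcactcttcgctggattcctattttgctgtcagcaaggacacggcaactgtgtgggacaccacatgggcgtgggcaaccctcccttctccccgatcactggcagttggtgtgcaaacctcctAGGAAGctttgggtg
Ltf (chr9:111019142-111019291, plus strand): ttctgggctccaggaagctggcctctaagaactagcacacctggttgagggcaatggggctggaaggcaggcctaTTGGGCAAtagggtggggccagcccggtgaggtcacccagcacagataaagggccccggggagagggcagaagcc
Ngp (chr9:110419658-110419807, plus strand): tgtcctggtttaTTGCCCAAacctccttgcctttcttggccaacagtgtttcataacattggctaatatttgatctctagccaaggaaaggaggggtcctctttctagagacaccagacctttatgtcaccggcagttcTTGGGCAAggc
Mmp8 (chr9:7558309-7558428, plus strand): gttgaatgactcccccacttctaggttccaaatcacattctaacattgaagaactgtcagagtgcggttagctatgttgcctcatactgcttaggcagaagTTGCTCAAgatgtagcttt

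Over all 250 upstream bases and both strands, AGGAAG was found in 7 of the 8 primary granule genes with a sequence in that table, in 10 of the 16 secondary and tertiary granule genes and in 29.2% of all 27025 promoters. TTGCNNAA was found in 5 of those 16 genes, in 2 of the 8 primary granule genes and in 9.55% of all promoters. Among all called genes the shares stayed near those of the genes tested: for TTGCNNAA 7.67% of promoters higher in M-MDSCs, 7.71% of those higher in PMN-MDSCs and 7.60% of those tested, and for AGGAAG 27.97%, 30.9% and 28.4%. A match describes letters in a window and is not a binding site.

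Transcription factors of the monocyte and granulocyte fates were split between the cell types. Of 15 factors of the monocyte and macrophage fate, 9 were higher in M-MDSCs and 3 in PMN-MDSCs, with a median of 1.96. Irf8, which directs progenitors to monocytes, had 2487, 2502 and 2682 against 515, 131 and 263 (3.29 ± 0.40), Klf4, a factor of monocyte differentiation, 1957, 1509.5 and 1839.8 against 355, 175 and 347 (2.66 ± 0.33), and Irf5 2333, 1785 and 2182 against 629.9, 377 and 647 (1.96 ± 0.22). The 3 factors higher in PMN-MDSCs were the immediate early genes Egr1 (311, 203 and 272 against 6887, 3999 and 8369, −4.57 ± 0.50) and Egr2 (14.2, 4.86 and 6.03 against 591, 272 and 558, −5.71 ± 0.60) and Sfpi1, which encodes PU.1 (1102, 946 and 1426 against 2739.8, 2066 and 2812, −1.14 ± 0.21).

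Of 12 granulocyte fate factors tested, 3 were higher in M-MDSCs (5 with total-read scaling) and 5 in PMN-MDSCs. Mxd1, a MAX partner that opposes Myc, had 398, 719 and 390.4 against 21240, 16444 and 24288 (−5.40 ± 0.26) and lay far above in PMN-MDSCs. Cebpd (285, 421 and 400.1 against 1839.8, 1609 and 2004, −2.31 ± 0.20), Cebpb, the factor of emergency granulopoiesis (2415, 1761 and 2537 against 7719, 4088 and 6687, −1.43 ± 0.28), and the AP-1 gene Fosl2 (−1.83 ± 0.25) were also higher in PMN-MDSCs. Cebpa, needed for the step to granulocyte-monocyte progenitors, was higher in M-MDSCs, with 643, 559 and 617 against 276, 188 and 225 (1.41 ± 0.21). The median of the list was −0.55 and changed sign to 0.03 with total-read scaling.

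Growth factor and cytokine receptors went both ways. Of 18 tested, 6 were higher in M-MDSCs (background 28.2%) and 7 in PMN-MDSCs (background 26.7%, 4 with total-read scaling or quantile normalization), and the median of −0.18 became 0.40 and 0.05 with these. Csf3r led the PMN-MDSC side, and Tnfrsf1a, a receptor for tumour necrosis factor, was also higher there (959, 793 and 887 against 3278, 2357 and 3538, −1.78 ± 0.21). On the M-MDSC side were Il6st, described next, and Il3ra, the alpha chain of the interleukin-3 receptor (142, 173 and 129.7 against 30.6, 38.2 and 48.5, 1.91 ± 0.29).

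The interleukin-6 and STAT3 genes were mostly higher in PMN-MDSCs, apart from gp130. Of 24 genes, 19 were higher in PMN-MDSCs, 3 in M-MDSCs (5 with total-read scaling or quantile normalization) and 2 were not called, with a median of −1.56. Il6st, the gp130 signalling chain, had 1295, 1394 and 1573 in M-MDSCs and 107, 53.5 and 101 in PMN-MDSCs (4.07 ± 0.30, adjusted p 4.91e-10), and all 3 M-MDSC libraries were more than 10-fold above the PMN-MDSC libraries. Il6ra, the ligand-binding chain, had 2526, 1821 and 2074 and 2025, 1401 and 2019.8 (0.24 ± 0.22, 95% interval −0.21 to 0.70), and its groups overlapped. It was called higher in M-MDSCs with total-read scaling (adjusted p 0.00154) and quantile normalization.

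Most genes downstream of the receptor had the opposite direction to Il6st. Stat3 had 1729.8, 1514 and 1438 against 4485, 3680.4 and 5285 (−1.51 ± 0.18), Jak1 2040.4, 1787 and 2274 against 5410.2, 4382 and 5934 (−1.36 ± 0.14), and Socs3, the feedback inhibitor induced by STAT3, 306, 126 and 165 against 2981, 1469.6 and 4183 (−3.83 ± 0.53). PMN-MDSC replicate 2 was the lowest of its group for all 3. Myc, a growth factor response gene, was on the M-MDSC side with 141, 149.9 and 212 against 12.2, 26.3 and 15.5 (3.19 ± 0.36), and the kinase gene Tyk2 was the third (1.09 ± 0.17). The members Lcn2, S100a8, S100a9, Cebpd, Cebpb and Junb are also neutrophil granule or granulocyte genes and stand in other lists here. Further lists share members too, among them Ptgs2, Ncf1 and Mmp9, so the lists are not separate counts.

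Genes of suppressive function were mostly higher in PMN-MDSCs. Of 22 listed, 18 were tested: 11 were higher in PMN-MDSCs, 1 in M-MDSCs and 6 were not called, with a median of −1.78. Ptgs2, cyclooxygenase-2, had 40.8, 30.0 and 35.0 against 6878, 3511 and 7581 (−7.30 ± 0.54). Nt5e (CD73) and Entpd1 (CD39), which together turn extracellular ATP into adenosine, had 5.70, 0 and 3.62 against 347, 330.3 and 232 (−6.58 ± 0.69) and 260.3, 203 and 259 against 1945, 1341 and 2290.3 (−2.92 ± 0.24). Arg2 is given above, and the fatty acid transporter gene Slc27a2 (FATP2) had 147 reads in PMN-MDSCs and 0 in M-MDSCs, at least 61.8-fold higher against a floor of 3 reads over the group.

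Tgfb1, transforming growth factor beta 1, was the member higher in M-MDSCs (1788, 1366 and 1998 against 824, 745 and 962, 1.01 ± 0.19). Cd274, which encodes PD-L1, had 278, 116 and 167 against 601, 244 and 587 (−1.33 ± 0.48, adjusted p 0.0231), a call lost without M-MDSC replicate 2 (0.110) or 3 (0.0575), without PMN-MDSC replicate 1 (0.0949) or 3 (0.0918), and with total-read scaling (0.165). Arg1 and Nos2, the arginase and nitric oxide synthase often used to describe MDSCs, were under the level needed for testing. Arg1 had 0, 4.05 and 0 in M-MDSCs and 5.10, 0 and 1.03 in PMN-MDSCs, and Nos2 0, 0 and 0 and 16.3, 0.849 and 1.03.

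Some oxidative burst genes were higher in PMN-MDSCs. Of 9 NADPH oxidase genes, 4 were higher in PMN-MDSCs, among them Ncf1 (2535, 3918 and 2514 against 11633, 15182 and 10428, −2.07 ± 0.30), Ncf4 (−1.67 ± 0.22) and the GTPase gene Rac2 (−1.58 ± 0.30). The catalytic membrane subunit Cybb had 7374, 6896 and 10890 and 4464, 15079 and 5592 (0.19 ± 0.57), overlapping groups with PMN-MDSC replicate 2 the highest library. The median of the list, −0.56, changed to 0.02 with total-read scaling, with which 2 genes were called higher in M-MDSCs, and 1 was without M-MDSC replicate 2.

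Interleukin-1 family genes and chemokine receptors were mainly PMN-MDSC genes. Of 13 interleukin-1 family genes tested, 9 were higher in PMN-MDSCs and 1, the inflammasome adaptor Pycard (2.36 ± 0.50), in M-MDSCs. Il1r2, the decoy receptor, had 16.1, 21.9 and 23.5 against 1837, 1264 and 2864 (−6.47 ± 0.31), Il1rap, the accessory chain, 82.6, 103 and 120.1 against 566, 504 and 974 (−2.68 ± 0.24), and Il18rap, the accessory chain of the interleukin-18 receptor, 292, 305 and 274 against 3518, 2988 and 3969.5 (−3.58 ± 0.20). Both the cytokine Il1b and its decoy receptor were thus higher in the PMN-MDSC libraries, and whether the same single cells carried both was not tested.

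Of 22 chemokine receptors and ligands tested, 11 were higher in PMN-MDSCs and 4 in M-MDSCs. C5ar1, the receptor for complement fragment C5a, had 56.0, 42.9 and 56.1 against 2359, 1838 and 2949.8 (−5.48 ± 0.32), Ccr1 94.0, 156 and 218 against 3760, 2259 and 4399.9 (−4.49 ± 0.32), and Cxcl2, a ligand of Cxcr2, 19.0, 8.91 and 9.05 against 624, 508 and 885 (−5.70 ± 0.48). Cxcr1 had 105 reads in PMN-MDSCs and 0 in M-MDSCs, at least 44.1-fold higher against the same floor. The 4 M-MDSC genes were Ccr2, Cx3cr1, the receptor for fractalkine (3.27 ± 0.45), and the ligand genes Ccl9 (4.17 ± 0.42) and Ccl5 (1.59 ± 0.67).

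Lipid mediator genes were more often higher in PMN-MDSCs. Of 17 leukotriene and prostaglandin genes tested, 8 were higher in PMN-MDSCs and 3 in M-MDSCs. Alox5, 5-lipoxygenase, which starts leukotriene synthesis, had 166, 288 and 181 against 4394, 3488 and 3959 (−4.25 ± 0.29), and Ptger2, a receptor for prostaglandin E2, 66.5, 146 and 55.5 against 265, 245 and 348 (−1.78 ± 0.34). Ptges3, a cytosolic prostaglandin E synthase and co-chaperone, was higher in M-MDSCs (0.99 ± 0.20). The count of 8 fell to 3 with total-read scaling, to 5 without M-MDSC replicate 1 or PMN-MDSC replicate 2, and to 4 without both libraries numbered 2.

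Antigen presentation genes were higher in M-MDSCs. Of 16 genes of MHC class II presentation, 10 were higher in M-MDSCs and 1 in PMN-MDSCs (2 without PMN-MDSC replicate 2), with a median of 2.43. H2-DMa, part of the peptide-loading chaperone, had 337, 204 and 358 against 34.7, 42.5 and 21.7 (3.16 ± 0.36), Ifi30, a lysosomal thiol reductase, 1368, 1417 and 1492 against 89.7, 73.9 and 95.0 (4.04 ± 0.32), and Ctss, the cathepsin that cleaves the invariant chain, 7402, 4561 and 7070.1 against 897, 388 and 1014 (3.13 ± 0.32). The member higher in PMN-MDSCs was Cd80, a costimulatory ligand, with 38.0, 22.7 and 42.2 against 455, 209 and 358 (−3.25 ± 0.35). Markers of dendritic cells, which carry the same pathway, moved with these genes: 8 of 10 tested were higher in M-MDSCs and 1 in PMN-MDSCs. The summed level of all 12 dendritic cell markers was 1145.7 to 2044 in M-MDSCs and 1180 to 2684 in PMN-MDSCs, and its part in the result was not tested. The dendritic cell marker higher in PMN-MDSCs was Itgax (814, 314 and 518 against 2380, 991 and 2049).

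Lysosomal genes were mainly M-MDSC genes and uptake receptors were split. Of 24 lysosomal genes, 15 were higher in M-MDSCs and 4 in PMN-MDSCs (1 with total-read scaling), with a median of 0.86. Ctsc, the cathepsin that activates granule serine proteases, had 1336, 1018 and 1736 against 117, 86.6 and 140.4 (3.55 ± 0.28), Npc2, a cholesterol carrier, 1903, 1443 and 1722 against 213, 251 and 338 (2.67 ± 0.20), and Psap, prosaposin, 20330, 14385 and 22858 against 5125, 3721 and 4969 (2.05 ± 0.20). Ctsd, cathepsin D, went the other way (1005, 946 and 1046 against 5574, 3568 and 5758, −2.28 ± 0.22).

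Of 21 phagocytic and Fc receptor genes, 7 were higher in M-MDSCs and 10 in PMN-MDSCs. Axl, a receptor for dying cells, had 1103, 485 and 609 against 105, 67.1 and 83.6 (3.02 ± 0.36), and Clec4d, a C-type lectin receptor, 32.3, 21.1 and 29.0 against 2345, 991 and 2819 (−6.06 ± 0.49). Itgam (CD11b) and Itgb2 (CD18), which pair as complement receptor 3, had 4998, 5052 and 4797 against 21647, 24928 and 20955 (−2.18 ± 0.18) and 6937, 6314 and 6315 against 19853, 19753 and 18097 (−1.56 ± 0.17). Of 12 complement genes 3 were higher in M-MDSCs, among them Cd93 (2.12 ± 0.21), and 4 in PMN-MDSCs (2 with total-read scaling), among them Cd55, decay-accelerating factor (−3.68 ± 0.47). Their median of −0.16 became 0.39 with that scaling.

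Sensors of microbial products were found on both sides. Of 20 toll-like receptors and adaptors, 10 were higher in PMN-MDSCs and 4 in M-MDSCs (8 with total-read scaling, with which the median of −0.38 became 0.18). The surface receptors Tlr4, for lipopolysaccharide (110.2, 145 and 116 against 662, 451 and 578, −2.17 ± 0.22), and Tlr5, for flagellin (79.8, 54.3 and 63.4 against 364, 412 and 476, −2.65 ± 0.34), were higher in PMN-MDSCs. Tlr9, an endosomal sensor of CpG DNA, was higher in M-MDSCs (372, 214 and 479.7 against 34.7, 7.64 and 32.0, 3.96 ± 0.47). Irak3, a kinase homolog that dampens the pathway, was higher in PMN-MDSCs (−1.26 ± 0.14).

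NF-kB target and interferon genes differed within each list. Of 20 NF-kB genes, 9 were higher in PMN-MDSCs and 1, Nfkb1, in M-MDSCs (4 with total-read scaling, 0 without M-MDSC replicate 1 or 3). Besides Il1b and Cxcl2 they included Nfkbiz, an atypical inhibitor that acts in the nucleus (3563, 2116 and 1860.3 against 14021, 9032 and 15124, −2.36 ± 0.29), and Tnfaip2 (1462, 1131 and 1141 against 17135, 8079.9 and 17726, −3.45 ± 0.42). Of 28 type I interferon response genes, 13 were higher in PMN-MDSCs and 5 in M-MDSCs (9 with total-read scaling), with a median of −0.68. Ddx58, which encodes the RNA sensor RIG-I, had 609.9, 433 and 405 against 1789.8, 1294 and 1539 (−1.68 ± 0.22), and Cmpk2, a mitochondrial nucleotide kinase, 286, 271 and 236 against 845, 742 and 616 (−1.46 ± 0.19).

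The interferon genes on the M-MDSC side had large differences of their own. Mx1, an antiviral GTPase, had 1234, 753 and 643 against 94.8, 39.1 and 41.3 (3.95 ± 0.46). Ifi44 had 64.6, 19.4 and 30.8 in M-MDSCs and no read in PMN-MDSCs, at least 37.8-fold higher against a floor of 3 reads over the group. Genes of the same response were therefore found on both sides of the comparison.

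**Figure D4:**
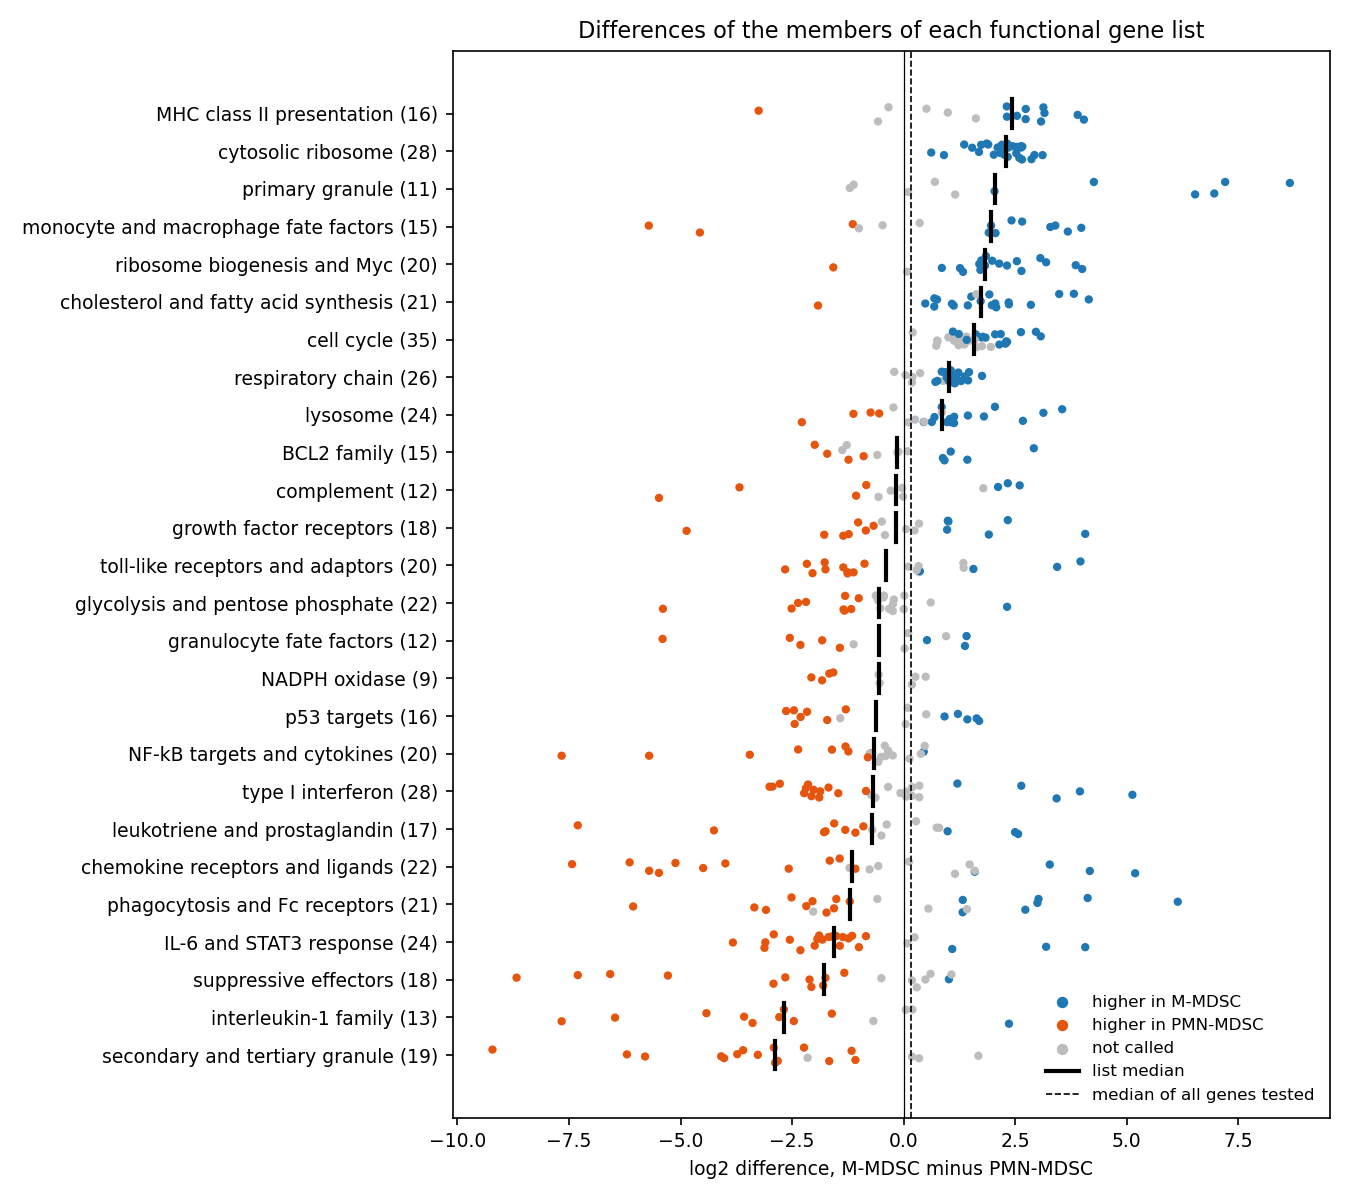
Log2 difference between M-MDSCs and PMN-MDSCs (x axis) of each tested member of 26 functional gene lists (y axis, with the number tested), blue where called higher in M-MDSC, orange where called higher in PMN-MDSC and grey where not called. The black bar is the list median, from −2.88 for secondary and tertiary granules to 2.43 for MHC class II presentation, and the dashed line is the median of all genes tested, 0.17.

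Genes of protein synthesis were higher in M-MDSCs. All 28 cytosolic ribosomal protein genes tested were called, with a median of 2.29 and a range of 0.62 to 3.11. Rpsa, the laminin receptor and small-subunit protein, had 5522, 7208 and 7211 against 845, 1177 and 1140.5 (2.66 ± 0.19), Rps19 1166, 1070.3 and 1076 against 230.3, 245 and 216 (2.26 ± 0.16), and Rpl23 2123, 1755 and 2193 against 418, 425 and 574 (2.11 ± 0.16). Ribosomal protein genes have many processed pseudogenes, so reads may be split among copies. Of 20 genes of ribosome biogenesis, 18 were higher in M-MDSCs: Fbl, fibrillarin, had 443, 442 and 475 against 17.3, 17.8 and 65.0 (4.001 ± 0.41) and Npm1, nucleophosmin, 2012, 2885 and 2759 against 467, 349 and 404 (2.64 ± 0.30). Polr1a, the large subunit of RNA polymerase I, was the member higher in PMN-MDSCs (441, 436 and 409 against 1435, 1233 and 1181, −1.58 ± 0.14). Rn45s reads were a larger share of these M-MDSC libraries, as given above, but ribosomal sequence had been removed, so this share does not measure that polymerase. In untreated IL-6 KO mice the Rn45s shares overlapped, at 6.07 to 11.1% in M-MDSCs and 2.94 to 13.7% in PMN-MDSCs.

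Mitochondrial and lipid synthesis genes were on the same side. Of 26 nuclear-encoded respiratory chain genes, 20 were higher in M-MDSCs and 0 in PMN-MDSCs, with a median of 1.02. Atp5a1, the alpha subunit of ATP synthase, had 2903, 3602 and 3407 against 956, 1567 and 1179 (1.44 ± 0.17), and Sdhc, of complex II, 266, 292 and 288 against 123, 138 and 133 (1.096 ± 0.20). Of 21 cholesterol and fatty acid synthesis genes, 19 were higher in M-MDSCs, with a median of 1.73. Fasn, fatty acid synthase, had 531, 519 and 705 against 143, 59.4 and 58.8 (2.85 ± 0.35), and Insig1, a sterol-responsive regulator, 298, 220.4 and 331 against 68.3, 102 and 49.5 (1.98 ± 0.30). Sc5d, sterol-C5-desaturase, went the other way (69.3, 67.2 and 103 against 345, 264 and 294, −1.92 ± 0.25).

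Genes of glucose use were higher in PMN-MDSCs at particular steps. Of 22 glycolysis and pentose phosphate genes, 9 were higher in PMN-MDSCs, 1, Pfkm, in M-MDSCs (2 without PMN-MDSC replicate 2, 3 with total-read scaling) and 12 were not called, and the median of −0.55 became 0.04 with total-read scaling. Slc2a3, the high-affinity glucose transporter GLUT3, had 124, 266 and 138 against 7612, 6644 and 6815 (−5.39 ± 0.27). Hk3, a hexokinase of myeloid cells, had 1632, 2521 and 1441 against 10064, 8784 and 9194 (−2.37 ± 0.27), and Pfkfb4 and Pfkfb3, which set the level of an activator of phosphofructokinase, were −2.51 ± 0.17 and −1.33 ± 0.16. Pkm, pyruvate kinase (−1.01 ± 0.20), was called among the later steps, and Gapdh (−0.24 ± 0.26) and Ldha (−0.57 ± 0.26) were not.

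Genes of DNA replication were higher in M-MDSCs, and mitotic genes mostly were not called. Of 35 cell cycle genes, 16 were higher in M-MDSCs and 0 in PMN-MDSCs, with a median of 1.59 and every member above 0. The subunits of the replicative helicase led: Mcm3 had 914, 1669 and 1218 against 114, 215 and 125 (3.07 ± 0.38), Mcm2 429, 780.2 and 741 against 45.9, 128 and 85.7 (2.96 ± 0.63), Mcm6 687, 1471 and 1335 against 270.1, 141 and 148 (2.63 ± 0.50) and Mcm7 681, 1237 and 906 against 222, 293 and 163 (2.05 ± 0.37). Mki67, the proliferation marker Ki-67, had 5911, 13686 and 11275 against 2262, 9344 and 2294 (1.41 ± 0.79, adjusted p 0.136). PMN-MDSC replicate 2 lay above M-MDSC replicate 1 for Mki67 and the groups overlapped. Without PMN-MDSC replicate 2 the count was 27 and Mki67 was called (limma adjusted p 0.0427), and the count was 25 with array weights and 29 with total-read scaling.

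Of 15 BCL2 family genes, 5 were higher in M-MDSCs and 4 in PMN-MDSCs, shares near the 28.2% and 26.7% of all genes, and the median of −0.14 became 0.44 with total-read scaling. Mcl1, a short-lived survival protein on which neutrophils depend, had 5639.7, 4389 and 4964 against 25721, 13080 and 23029 (−1.99 ± 0.31), and Bcl2l1 (BCL-XL) 186, 203 and 176 against 411, 458 and 467 (−1.24 ± 0.19). Bcl2 went the other way with 311, 225 and 309 against 178, 127 and 140.4 (0.92 ± 0.29), as did the effector Bax (267, 208 and 223 against 88.7, 62.8 and 111, 1.43 ± 0.25). Bcl2a1b (−1.28 ± 0.57) was not called by limma, was called by edgeR (adjusted p 0.0437) and DESeq2 (0.0280), and has near-identical copies. Of 16 p53 target genes, 7 were higher in PMN-MDSCs, among them Sesn2, a stress-induced regulator of growth signalling (−2.63 ± 0.32), Trp53inp1 (−2.46 ± 0.25), Btg2, an antiproliferative gene (−2.44 ± 0.28), and Mdm2, the p53 ubiquitin ligase (−1.30 ± 0.15). Another 5 were higher in M-MDSCs (3 without M-MDSC replicate 1 or 3, without both libraries numbered 2 or with quantile normalization).

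Of 10 markers of non-classical monocytes tested, 2 were higher in M-MDSCs and 3 in PMN-MDSCs (1 with total-read scaling). These shares were near the 28.2% and 26.7% of all genes, and the median of −0.68 became −0.11 with that scaling. Spn (CD43, 1.33 ± 0.33) and Pou2f2 (1.34 ± 0.37) were higher in M-MDSCs. Those higher in PMN-MDSCs included Pglyrp1, a peptidoglycan recognition protein that neutrophils also store (−2.69 ± 0.53), and Itgal (−1.15 ± 0.32, not called with total-read scaling or quantile normalization). Summed levels of the list overlapped, at 9384 to 16431 in M-MDSCs and 13894 to 20513 in PMN-MDSCs. Treml4 was the third member higher in PMN-MDSCs (−0.90 ± 0.34).

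Few markers of B, T and NK cells were called, though 12 of 14 T cell markers and all 10 NK cell markers reached the level for testing. Of 12 B cell markers only 6 reached the level for testing, and 1, Bank1, was called, higher in PMN-MDSCs (89.3, 79.4 and 61.5 against 428, 294 and 214, −1.97 ± 0.31). Of 12 T cell markers tested 3 were higher in M-MDSCs (5 with total-read scaling), a share below the 28.2% of all genes: Cd8a (65.5, 30.0 and 78.4 against 0, 5.94 and 0, 4.84 ± 0.75), Cd28 (3.60 ± 0.85) and Tcf7 (1.80 ± 0.67). The summed level of 14 T cell markers was 241 to 754 in M-MDSCs and 138 to 325 in PMN-MDSCs, lowest in replicate 2 of each. Of 10 NK cell markers 1 was called (2 without M-MDSC replicate 2), Gzma (349.6, 124 and 508 against 112, 93.4 and 176, 1.19 ± 0.49), a call lost without M-MDSC replicate 1 (adjusted p 0.133) or 3 (0.245) or PMN-MDSC replicate 1 (0.107) or 2 (0.140) and under 3 other settings, and 6 were called with total-read scaling. The Tcf7 call was lost without M-MDSC replicate 1 (0.0741) or 3 (0.155) or PMN-MDSC replicate 2 (0.163) and under 3 other settings. All 3 plasma cell markers tested were higher in M-MDSCs, Irf4 (3.68 ± 0.45), Igj (2.79 ± 0.83) and Prdm1 (1.84 ± 0.49), of which the first and last are also expressed in monocytes. The part of these cells in the M-MDSC results was not tested.

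Markers of other myeloid and blood cells went both ways. Of 12 red pulp macrophage markers, 4 were higher in M-MDSCs (2 without PMN-MDSC replicate 2, 7 with total-read scaling), among them Spic (59.8, 23.5 and 44.7 against 0, 3.40 and 12.4, 3.39 ± 0.97) and Hmox1 (0.68 ± 0.23, a call lost without M-MDSC replicate 1 or 3 or PMN-MDSC replicate 2), and 1 in PMN-MDSCs (2 without that library), the iron exporter Slc40a1 (68.4, 190.4 and 120.1 against 3332, 2687 and 3672, −4.77 ± 0.36). Hdc, histidine decarboxylase, known from basophils and mast cells, had 98.8, 213 and 135 against 7261, 4591 and 7674 (−5.47 ± 0.41), while Fcer1a, Cpa3 and Mcpt8, defining markers of those cells, were below the level for testing. Of 6 eosinophil, basophil and mast cell markers tested, Hdc was the member higher in PMN-MDSCs (2 without M-MDSC replicate 3 or PMN-MDSC replicate 2) and Prg2, eosinophil major basic protein, the member higher in M-MDSCs (3.86 ± 1.03). Of 4 erythroid markers tested 3 were higher in PMN-MDSCs, Alas2 (25.6, 10.5 and 7.24 against 60.1, 39.9 and 59.9, −1.97 ± 0.81), Car2 (−1.98 ± 0.81) and Ermap (−2.61 ± 0.83), but the globin genes were below the level for testing. That count fell to 1 without M-MDSC replicate 2, without PMN-MDSC replicate 3, without both libraries numbered 2 and with total-read scaling, and to 0 without PMN-MDSC replicate 1. The Alas2 call was also lost without M-MDSC replicate 3 or PMN-MDSC replicate 2, and the Car2 call without M-MDSC replicate 1.

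Both platelet markers tested were higher in PMN-MDSCs, Itga2b (−2.15 ± 0.53) and Gp1bb (0.95, 4.86 and 1.81 against 44.8, 38.2 and 13.4, −3.22 ± 0.71), while Pf4 and Ppbp were below the level for testing. Of 9 progenitor markers 4 were higher in M-MDSCs, Cd34 (84.5, 74.5 and 142 against 8.15, 0 and 10.3, 4.38 ± 1.12), Flt3 (2.33 ± 0.43), Meis1 (2.08 ± 0.48) and Myb (865, 1654 and 1156 against 264, 776 and 272, 1.63 ± 0.51), the last not called without PMN-MDSC replicate 1 (limma adjusted p 0.0519). Kit, the stem cell factor receptor, had 134, 237 and 283 and 154, 299 and 95.0 (0.35 ± 0.49) and was not called. Of 5 endothelial and stromal markers Pecam1 was higher in M-MDSCs (0.80 ± 0.28, a call lost without M-MDSC replicate 3, PMN-MDSC replicate 2 or both libraries numbered 2) and Col1a1 in PMN-MDSCs (−4.35 ± 0.73). Of 7 melanoma markers only Mitf reached the level for testing and it was not called (−0.21 ± 0.35). The pigment cell genes Mlana, Pmel, Tyr, Tyrp1, Dct and Sox10 were below that level.

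The cell type difference was then set beside that of untreated IL-6 KO mice and of lymphodepleted WT mice. Those comparisons shared no library with it, but they shared its gene filter and the spread estimated over all 24 libraries. Across the 11277 genes the differences correlated at a Pearson r of 0.879 (Spearman 0.870) with those of untreated IL-6 KO mice and 0.870 (Spearman 0.869) with those of lymphodepleted WT mice. Genes are not independent replicates, so these are descriptions. Of the 6194 calls, 4559 (73.6%) were called the same way in untreated IL-6 KO mice, which is 82.7% of the 5516 calls there (24% of genes higher in M-MDSCs and 24.9% higher in PMN-MDSCs), and 5 the opposite way. In lymphodepleted WT mice, where 22.9% of genes were called in each direction, 4327 (69.9%) were called the same way, 83.8% of the 5161 calls there, and 2 the opposite way. Over these and untreated WT mice (26.2% and 27.6% called), 3467 genes were called the same way in all 4 conditions, 1432 higher in M-MDSCs and 2035 higher in PMN-MDSCs.

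Few genes were called for a cell type difference that itself differed from that of untreated IL-6 KO mice. With 3 libraries per group, a gene that was not called is not shown to be unchanged. The interaction test called 13 of 11277 genes (0.115%), 5 with the difference shifted towards M-MDSCs (0.0443%) and 8 towards PMN-MDSCs (0.0709%), while 910 had an unadjusted p under 0.05. Myc had 141, 149.9 and 212 in M-MDSCs and 12.2, 26.3 and 15.5 in PMN-MDSCs after lymphodepletion, and 112, 92.5 and 214 and 109, 144 and 72.2 in untreated mice. The M-MDSC libraries of both conditions overlapped and the lymphodepleted PMN-MDSC libraries were all below the untreated ones, and the cell type difference was larger by 2.87 ± 0.51 (limma adjusted p 0.0266). Rplp1, a ribosomal stalk protein gene, had 458, 321 and 530.5 in lymphodepleted and 1251, 1447 and 1089.5 in untreated PMN-MDSCs, with M-MDSC libraries between 2138 and 2612 in both (1.45 ± 0.23, 0.0124). Pprc1, a coactivator of mitochondrial biogenesis (1.71 ± 0.31), Kdm2b, a CpG-binding histone demethylase (1.42 ± 0.26), and Hap1, huntingtin-associated protein 1 (4.20 ± 0.82), were the other 3.

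Il18r1 had the opposite pattern. This alpha chain of the interleukin-18 receptor had 195, 131 and 197 in lymphodepleted and 704, 684 and 757 in untreated M-MDSCs, against 471, 617 and 497 and 514, 498 and 455 in PMN-MDSCs. The M-MDSC libraries were far lower after lymphodepletion and the PMN-MDSC libraries overlapped, so the cell type difference went from 0.55 ± 0.19 to −1.61 ± 0.19, a shift of −2.16 ± 0.27 (adjusted p 0.00065). Ugcg, glucosylceramide synthase, had 311, 239 and 323 in lymphodepleted and 1038, 1179.6 and 995 in untreated M-MDSCs against 646, 494 and 517 and 633, 798 and 575 in PMN-MDSCs (−1.61 ± 0.28). Tbc1d10c, a Rab GTPase regulator (−1.64 ± 0.33), Zfp831, a zinc finger gene (−1.63 ± 0.31), and Dab2ip, a Ras GTPase activator (−1.61 ± 0.30), shifted in the same direction, and the 3 remaining genes were Il18rap, Mcam and Satb1. Of the 10 genes given values here, Il18r1 and Rplp1 kept their call in each fit that left out 1 library. The count of 13 was 2 without M-MDSC replicate 2, or without untreated M-MDSC replicate 1 or 2, and 35 without untreated M-MDSC replicate 3. It was 8 and 7 without M-MDSC replicates 1 and 3, 5 and 4 without untreated PMN-MDSC replicates 2 and 3, and 4 without both libraries numbered 2.

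**Figure D5:**
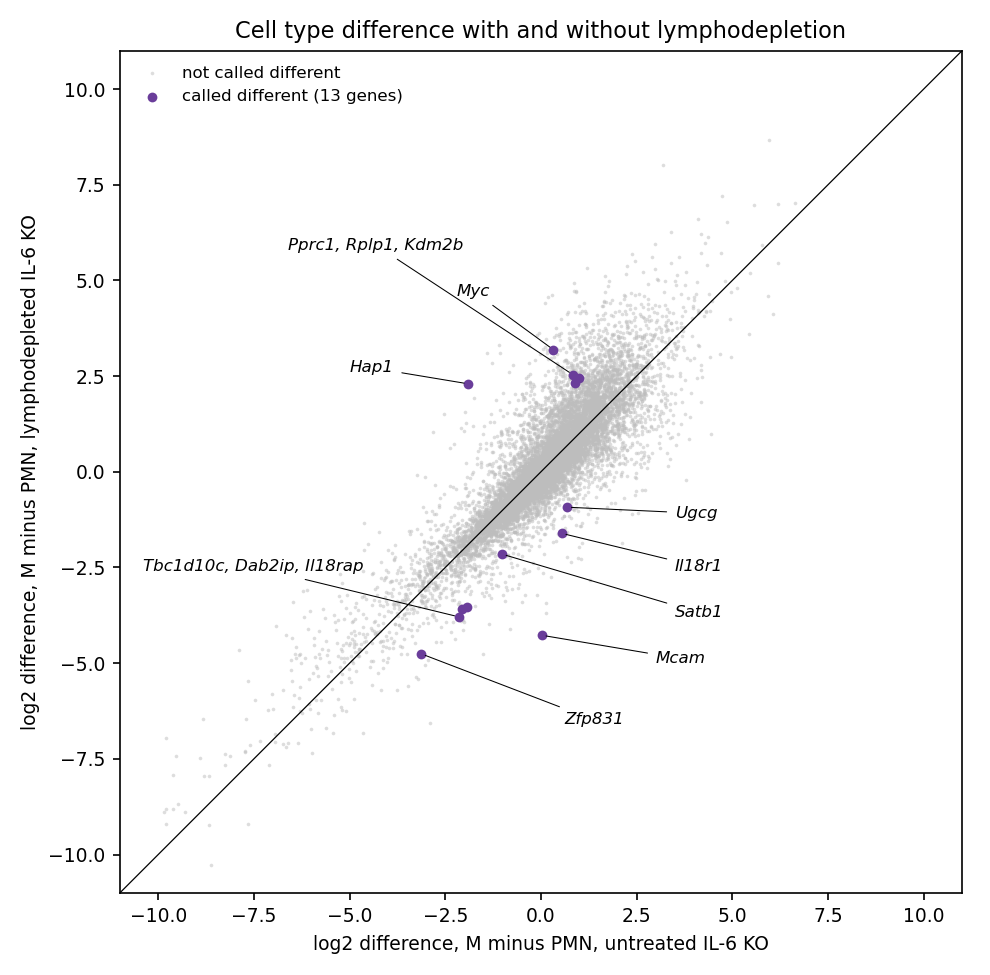
Log2 difference between M-MDSCs and PMN-MDSCs in lymphodepleted IL-6 KO mice (y axis) against that in untreated IL-6 KO mice (x axis) for 11277 genes, with the 13 genes called different in purple and the line of equal difference in black. Myc lies at 3.19 after lymphodepletion and 0.32 without it, and Il18r1 at −1.61 and 0.55.

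Against lymphodepleted mice labelled WT, the interaction test called 2 genes (0.0177%), with 991 at an unadjusted p under 0.05. F13a1 had 7366, 7854 and 11398 in M-MDSCs labelled IL-6 KO and 9196, 8825 and 10182 in those labelled WT, overlapping groups, but 65.2, 54.3 and 81.5 against 356, 683 and 449 in PMN-MDSCs, where the groups were far apart. The difference between cell types was 7.02 ± 0.26 in the first and 4.29 ± 0.26 in the second, apart by 2.73 ± 0.37 (adjusted p 0.00211). Il18r1 had 195, 131 and 197 in M-MDSCs labelled IL-6 KO and 82.1, 62.7 and 47.4 in those labelled WT, with PMN-MDSCs at 471, 617 and 497 and 619.5, 534 and 567 (1.57 ± 0.27, adjusted p 0.0428). The Il18r1 call against WT was lost without M-MDSC replicate 1 (adjusted p 0.196) or 3 (0.160), without PMN-MDSC replicate 1 (0.0855) or 3 (0.101), and without WT M-MDSC replicate 2 or 3 or WT PMN-MDSC replicate 1 or 2. The count of 2 was 22 without WT PMN-MDSC replicate 3, 8 without PMN-MDSC replicate 2 labelled IL-6 KO, 5 without WT PMN-MDSC replicate 1, and 1 in 5 other fits that left out 1 library.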

How the data were processed

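RNA of sorted spleen cells was sequenced in 24 libraries, 8 groups of 3 by genotype label, treatment and cell type. Per the labels' protocols, RNA came from Qiagen RNeasy and libraries from the NuGen Ovation Mouse kit with AnyDeplete removal of ribosomal sequence. The submitters' processing notes name STAR 2.5.3a, HTSeq 0.6.1, DESeq2 and mm10. The deposited signal values are read counts per gene divided by 1 size factor per library: every value was a whole multiple of its library's value for 1 read, within 0.001 of a read, and the reads were recovered from it.

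Levels are the deposited normalized counts. Differences were tested on the log2 scale after adding 1 to the normalized count, using limma 3.58.1 (R 4.3.3) with trended empirical Bayes variance over all 24 libraries and 8 group means, and Benjamini-Hochberg adjustment over 11277 genes. A group difference on this scale understates the change of low genes. The interaction compared cell type differences between conditions in the same fit. The fits were run on simulated counts for the main contrast only, not for the interactions. That simulation had few changed genes and a single fixed spread, unlike these data, so it does not check the counts given here. Alternatives were other pseudocounts, filters and scalings, edgeR 4.0.16 and DESeq2 1.42.0 on the recovered counts, the compared groups alone, array weights, a replicate block and leaving out each library. Counts with total reads and without both libraries numbered 2 were added after the data were seen. Counting of strand is not given in the sources used here.

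The comparison, the members and the gene lists were chosen with earlier results of these data known. The text names the 15 largest called differences in each direction and the 5 largest called interactions in each direction, among genes whose highest group averaged 100 counts or more (for the first, also with no overlap between the libraries), up to 4 called genes per list with the smallest adjusted p, and 28 key genes. Unnamed gene models were left out of the first and second of these. List members named beyond these were chosen after their values were seen. Some genes that this rule names are not reported here.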

Additional observations from a re-analysis of the deposited data

Results flagged for a closer look

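The cell type difference of 10 named genes differed between lymphodepleted and untreated IL-6 KO mice by the interaction test (limma, adjusted p under 0.05), each over 3 libraries per group. The shift was positive, towards M-MDSCs, for Hap1 (4.20 ± 0.82), Myc (2.87 ± 0.51), Pprc1 (1.71 ± 0.31), Rplp1 (1.45 ± 0.23) and Kdm2b (1.42 ± 0.26). It was negative, towards PMN-MDSCs, for Il18r1 (−2.16 ± 0.27), Tbc1d10c (−1.64 ± 0.33), Zfp831 (−1.63 ± 0.31), Ugcg (−1.61 ± 0.28) and Dab2ip (−1.61 ± 0.30). Hap1 had 75.0, 59.1 and 31.4 against 26.5, 3.40 and 9.29 normalized counts after lymphodepletion and 35.3, 30.4 and 29.2 against 59.3, 119.9 and 245 without it, M-MDSC against PMN-MDSC.

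Between the genotype labels under lymphodepletion the difference between cell types differed for F13a1 (2.73 ± 0.37) and Il18r1 (1.57 ± 0.27). F13a1 kept its call in each fit that left out 1 library.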

How the results depend on the processing

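Of 178 named genes with a value, 172 were called. Most were named because they were called, so these counts do not describe genes in general. Of the 172, 156 kept their call in every one of 18 alternatives, 160 kept it in each fit that left out 1 library, and 0 reversed. Over all genes, 4480 were called the same way in each of the 6 fits without 1 library, beside 6194 calls in the main fit. In those 6 fits 2622 to 3012 genes were higher in M-MDSCs and 2718 to 2919 higher in PMN-MDSCs. With total-read scaling these counts were 5212 and 1736. The cause was not tested.

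The count of genes whose cell type difference differed from untreated IL-6 KO mice, 13, was 102 with DESeq2, 76 with array weights, 25 with quantile normalization, 1 with the compared groups alone and 4 without both libraries numbered 2, and 2 to 35 with 1 library left out. The count against lymphodepleted WT mice, 2, was 82 with DESeq2, 4 with edgeR, 4 with array weights, 4 without both libraries numbered 2, 1 with the compared groups alone, 1 with a pseudocount of 5, and 1 to 22 with 1 library left out. The cause was not tested, and fits that used fewer libraries also had fewer samples.

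The labels do not say whether libraries with the same replicate number came from 1 mouse. Deviations of same-numbered libraries of the 2 cell types correlated at 0.20, 0.30 and 0.05, the last under the 0.1 asked of every pair, so the numbers were not taken as pairs. Each library but PMN-MDSC replicate 3 correlated best with its own number, which is a hint from the data and not from the design. With a replicate block 3206 genes were higher in M-MDSCs and 2981 higher in PMN-MDSCs, and the interactions called 18 genes and 1 gene. Among the named interactions the block ended the calls of Myc (limma adjusted p 0.0575), Kdm2b (0.0778), Zfp831 (0.0725) and Dab2ip (0.0575), and that of Il18r1 against WT (0.164). Differences between genes with few reads are limited by counting error.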
